A study of Mus musculus with 16 samples.

Results

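The genes described here are 10 components of protein folding and quality control in the endoplasmic reticulum: Hspa5, Hsp90b1, Calr, Canx, Pdia4, Xbp1, Atf6, Ddit3, Dnajb9 and Herpud1. They were taken by gene name from the Agilent arrays, with every non-control probe that carries the name, which gave 17 probes for 10 genes out of 17979 genes tested. All 17 probes were well above background on all 8 arrays. The cerebella came from Npc1-/- and wild-type (Npc1+/+) mice at 3 weeks of age, 4 mice of each genotype. The labels give strain BALB/cNctr-Npc1m1N/J for both genotypes; heterozygous breeders on a BALB/c background were bought and the Npc1-/- mice bred from them. The Npc1m1N allele is carried in the germ line and is therefore present in every cell type of the mutant cerebellum, and no other agent or allele is named for any group. Each Agilent array is 1 replicate. The labels number 8 further arrays of an Illumina platform, whose probe numbers come without gene names and which are not analysed here.

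The endoplasmic reticulum is where secreted and membrane proteins fold. Chaperones such as BiP (Hspa5) hold unfolded chains, and when unfolded protein accumulates, the sensors Ire1, Perk and Atf6 start the unfolded protein response, which raises transcription of the chaperones themselves. In the cerebellum, Purkinje cells carry a large endoplasmic reticulum that extends into their dendrites. Npc1 encodes the lysosomal membrane protein that exports cholesterol, and a lack of it underlies Niemann-Pick disease type C, in which Purkinje cells die.

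The promoters are shown first because the response acts on these genes through short known elements. The endoplasmic reticulum stress element (ERSE), bound by the cleaved form of Atf6 together with NF-Y and by Xbp1, was searched as CCAAT, then 9 bases of any kind, then CCACG. A second form, ERSE-II, was searched as ATTGG, then 1 base of any kind, then CCACG. Both strands were read. Windows reached from 250 bases before to 50 bases after each start in the RefSeq table of assembly GRCm38.p6, 300 bases each, and were found for 9 of the 10 genes; no Atf6 window was used here. The 5 windows with a match follow, read 5′ to 3′ along the gene, with ERSE or ERSE-II letters in capitals.
Hspa5, chr2:34771840-34772139, plus strand: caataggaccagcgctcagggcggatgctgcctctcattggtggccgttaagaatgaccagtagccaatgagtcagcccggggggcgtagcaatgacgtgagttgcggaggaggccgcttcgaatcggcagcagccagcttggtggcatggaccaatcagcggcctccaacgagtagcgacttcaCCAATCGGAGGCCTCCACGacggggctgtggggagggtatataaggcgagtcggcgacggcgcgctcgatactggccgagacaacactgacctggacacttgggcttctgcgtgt
Hsp90b1, chr10:86705395-86705694, minus strand: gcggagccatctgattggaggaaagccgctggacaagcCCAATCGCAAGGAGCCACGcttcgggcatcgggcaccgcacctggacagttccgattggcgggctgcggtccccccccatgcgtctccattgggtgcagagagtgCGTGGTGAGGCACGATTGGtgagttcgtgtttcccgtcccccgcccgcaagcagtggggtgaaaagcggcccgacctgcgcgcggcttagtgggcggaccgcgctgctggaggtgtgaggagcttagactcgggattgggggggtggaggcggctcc
Calr, chr8:84846882-84847181, minus strand: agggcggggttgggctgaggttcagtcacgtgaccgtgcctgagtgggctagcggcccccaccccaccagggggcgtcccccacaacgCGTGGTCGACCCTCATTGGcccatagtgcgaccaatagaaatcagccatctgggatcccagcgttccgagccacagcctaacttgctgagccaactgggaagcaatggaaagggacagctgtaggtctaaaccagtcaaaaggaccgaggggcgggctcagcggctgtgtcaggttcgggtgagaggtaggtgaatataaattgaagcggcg
Canx, chr11:50325624-50325923, minus strand: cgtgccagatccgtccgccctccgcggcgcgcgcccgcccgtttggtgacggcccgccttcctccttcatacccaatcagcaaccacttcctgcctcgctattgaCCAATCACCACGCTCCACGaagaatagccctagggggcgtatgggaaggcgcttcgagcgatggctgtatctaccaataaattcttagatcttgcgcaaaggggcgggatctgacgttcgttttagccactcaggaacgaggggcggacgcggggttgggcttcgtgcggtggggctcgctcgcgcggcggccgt
Herpud1, chr8:94386179-94386478, plus strand: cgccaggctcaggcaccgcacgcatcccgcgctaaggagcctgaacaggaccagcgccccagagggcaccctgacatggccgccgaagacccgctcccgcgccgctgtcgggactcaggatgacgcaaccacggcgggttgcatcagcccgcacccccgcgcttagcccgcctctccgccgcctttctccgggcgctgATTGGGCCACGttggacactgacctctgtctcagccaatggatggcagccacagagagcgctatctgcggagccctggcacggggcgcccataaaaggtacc

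ERSE letters stood in 4 of the 9 windows, where 39 of all 32851 windows of 27025 genes held them (0.119%). In Hspa5 they ran from -65 to -47 relative to the start. Hsp90b1 held 2 copies, from -212 to -194 and, on the opposite strand, from -107 to -89. Calr held them on the opposite strand from -162 to -144, and Canx from -145 to -127. ERSE-II stood in the Herpud1 window from -52 to -42, and in 12 of all windows (0.0365%). The 5 bases CCAAT, which also form the start of ERSE, stood in 8 of the 9 windows and in 37.4% of all windows, and CCACG, its end, in 7 of the 9 and in 32.8% of all. The core of the Xbp1 element, TGACGTGG, stood in 0 of the 9 windows and in 0.676% of all. The composite Atf4 and CHOP element, TGATGNAA, stood in 1 of the 9 windows, that of Herpud1, and in 3.97% of all. These elements were searched because they were already known to act on such genes. Their counts in the 9 windows therefore describe the promoters and are not a test of enrichment. A match describes letters in a window and is not a measured binding site.

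**Figure D1:**
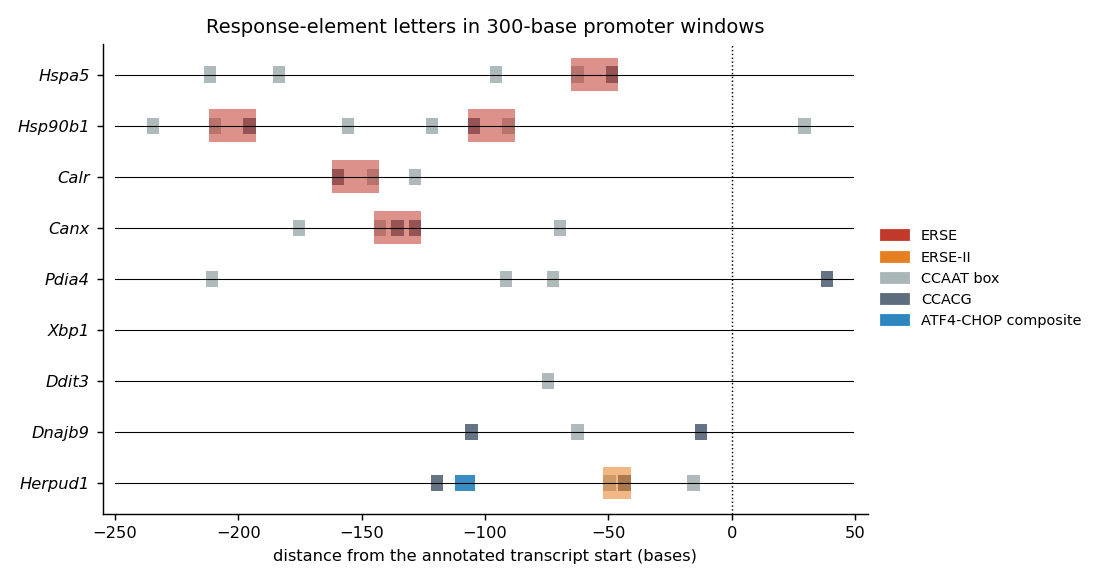
Position of matches in the promoter windows of 9 genes. The horizontal axis is the distance in bases from the RefSeq start, and each mark is a match of the element named in the legend. ERSE matches lie in Hspa5, Hsp90b1, Calr and Canx, and the ERSE-II match in Herpud1.

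The labels were checked on Npc1 itself. Its level, given like all levels here as log2 of the probe's signal relative to the 75th percentile of its array, was -2.53, -2.44, -2.32 and -2.60 in Npc1-/- replicates 1 to 4, against -0.52, -0.40, -0.64 and -0.37 in wild-type replicates 1 to 4. The log2 fold change (Npc1-/- minus wild type, used throughout) was -1.99 ± 0.10 (SE; limma adjusted p = 0.00045), and no array went against its label. The arrays had 22170 to 28131 of 41174 probes well above background, the fewest of them on wild-type replicate 2, and held no saturated spot. The granule and Purkinje cell lists that mark cerebellum were measured in full (8 of 8 genes each).

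No genotype difference was called in these genes: 0 of 10 passed an adjusted p of 0.05 over all genes in limma, where 0.768% of all 17979 genes did (138 genes, 132 higher and 6 lower in Npc1-/-). At an unadjusted p under 0.05 the count was also 0 of 10, against 7.4% of all genes, and the lowest unadjusted p among the 10 was 0.303. In none did the genotypes separate without overlap, against 4.91% of all genes. Their median log2 fold change was 0.02, with a range from -0.13 to 0.17, beside a median of -0.02 over all genes. By probe, 0 of 17 passed, against 0.523% of 27160 probes. The 95% intervals of all 10 genes stayed within 1 log2 unit on either side of 0, so a 2-fold difference lay outside each of them. The signs of the small differences carry little: 7 of the 10 genes changed sign under at least 1 other way of processing the arrays.

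**Figure D2:**
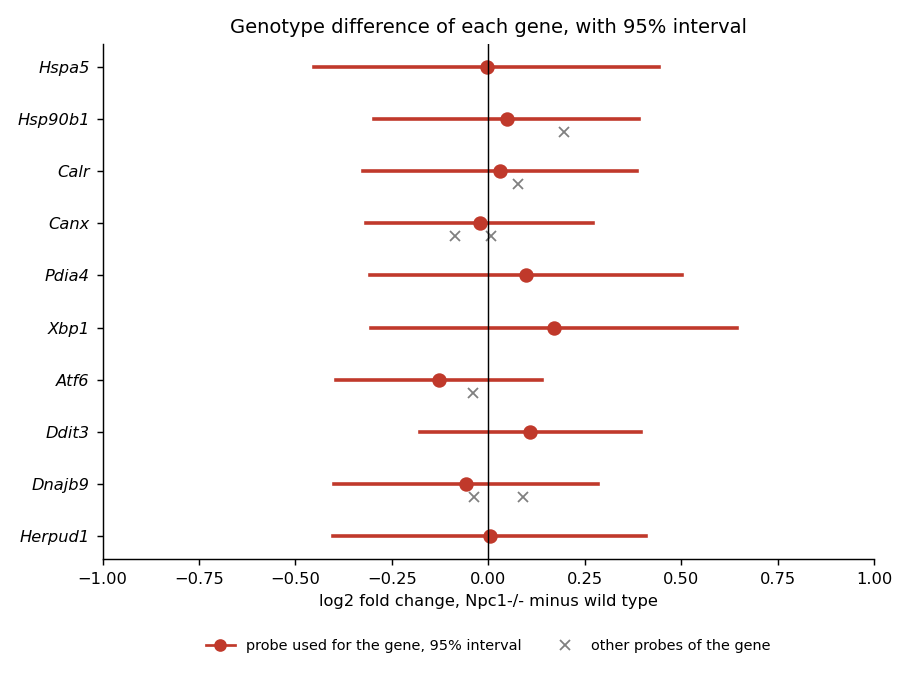
Log2 fold change of each gene, Npc1-/- minus wild type, with its 95% interval (horizontal bars) from 4 arrays per genotype; crosses are the other probes of a gene. Every interval spans 0, and the widest, that of Xbp1, ends at -0.30 and 0.64.

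The lumenal chaperones are given first. Hspa5, the Hsp70 chaperone BiP that also keeps the stress sensors inactive, had levels of 4.65, 4.62, 3.86 and 3.96 in Npc1-/- replicates 1 to 4, against 4.24, 4.23, 4.40 and 4.23 in wild-type replicates 1 to 4. Replicates 1 and 2 of the mutant lay above every wild-type array and replicates 3 and 4 below every one, so that the wild-type range sat inside the mutant range. The probe lies at chr2:34783421-34783480 in the mm7 build of the array files. The log2 fold change was -0.0042 ± 0.20 (SE; limma adjusted p = 0.995; 95% interval -0.45 to 0.44). The 4 mutant arrays spanned 0.79 log2 units, which is 1.73-fold, and the 4 wild-type arrays 0.17, which is 1.12-fold. The SD was 0.42 in Npc1-/- and 0.08 in wild type, at the 88.4th percentile of all genes' SDs in Npc1-/- arrays and the 7.05th in wild-type arrays.

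Hsp90b1, the Hsp90 chaperone Grp94 that matures a narrower set of clients, had levels of 4.68, 4.87, 4.36 and 4.25 in Npc1-/- replicates and 4.39, 4.37, 4.61 and 4.61 in wild-type replicates. Mutant replicates 1 and 2 were again above every wild-type array and replicates 3 and 4 below every one, and the log2 fold change was 0.05 ± 0.15 (SE; limma adjusted p = 0.927; 95% interval -0.30 to 0.39). A second Hsp90b1 probe, in coding sequence, had levels of 4.48, 4.27, 4.12 and 3.58 in Npc1-/- replicates and 4.02, 3.83, 3.76 and 4.06 in wild-type replicates. On it, mutant replicates 1 to 3 were above the wild-type arrays and replicate 4 below them, and the log2 fold change was 0.20 ± 0.19 (SE).

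Calr and Canx are the calreticulin and calnexin lectin chaperones that hold glycoproteins until they fold. Calr had levels of 3.66, 3.73, 3.07 and 3.32 in Npc1-/- replicates and 3.30, 3.54, 3.37 and 3.47 in wild-type replicates. Mutant replicates 1 and 2 again lay above the wild-type arrays and replicate 3 below them, and the log2 fold change was 0.03 ± 0.16 (SE; limma adjusted p = 0.957; 95% interval -0.32 to 0.39). A coding probe of Calr had the same order of highest and lowest mutant pairs, with 0.04, -0.02, -0.70 and -0.50 in Npc1-/- replicates and -0.57, -0.18, -0.55 and -0.20 in wild-type replicates. Canx, the membrane-bound partner, did not share that pattern, with 5.10, 5.30, 5.07 and 5.18 in Npc1-/- replicates and 4.99, 5.06, 5.51 and 5.17 in wild-type replicates. Wild-type replicate 3 was its highest array, and its log2 fold change was -0.02 ± 0.13 (SE; limma adjusted p = 0.962; 95% interval -0.32 to 0.27). The other 2 Canx probes gave log2 fold changes of 0.01 and -0.09.

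Pdia4, the ERp72 disulfide isomerase, had levels of 1.20, 1.09, 0.52 and 0.56 in Npc1-/- replicates and 0.57, 0.92, 0.67 and 0.82 in wild-type replicates. Mutant replicates 1 and 2 were above every wild-type array and replicates 3 and 4 below every one, as for Hspa5. The log2 fold change was 0.10 ± 0.18 (SE; limma adjusted p = 0.863; 95% interval -0.31 to 0.50). For Hsp90b1, Calr and Pdia4, a probe whose letters encode a stretch of the protein is printed. It shows which part of the transcript its values report. Which other probes lie in coding sequence was not determined. In the mm7 build of the array files the printed probes lie on the minus strand, at chr10:86256795-86256854 for Hsp90b1, chr8:83430740-83430799 for Calr and chr6:47755834-47755893 for Pdia4.
Hsp90b1 probe: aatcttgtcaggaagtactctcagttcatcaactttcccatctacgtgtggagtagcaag
Calr probe: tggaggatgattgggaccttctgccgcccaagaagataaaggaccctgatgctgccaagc
Pdia4 probe: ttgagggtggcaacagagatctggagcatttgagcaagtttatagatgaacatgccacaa

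**Figure D3:**
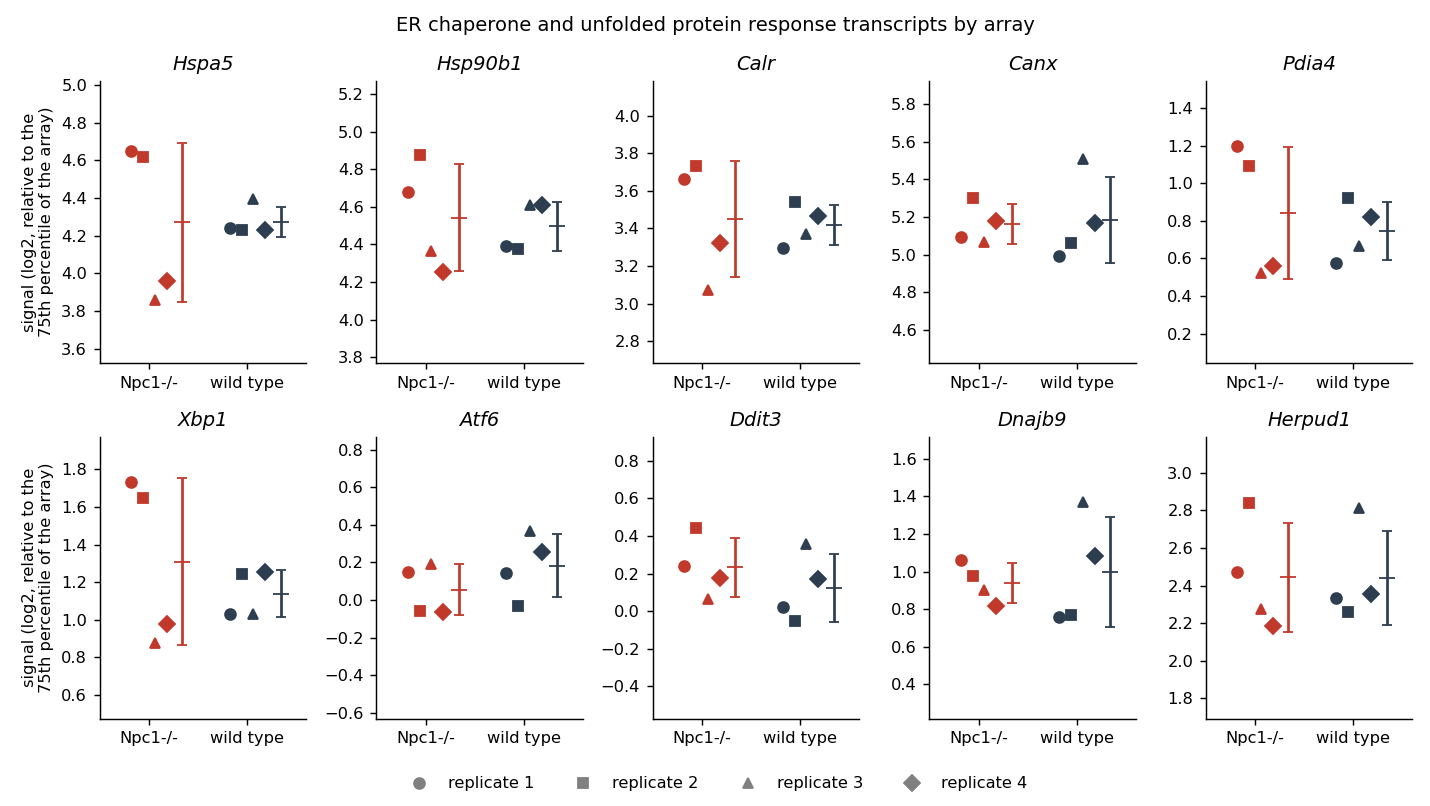
Level of each gene on each array (log2 relative to the array's 75th percentile), Npc1-/- arrays left and wild-type arrays right, with 1 point per array, its shape giving the replicate number, and bars for the mean ± SD of 4 arrays. Vertical axes differ in their position between genes. For Hspa5 and Pdia4 the mutant points lie on both sides of all wild-type points, from 3.86 to 4.65 and from 0.52 to 1.20.

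The transcription factors of the response come next. Xbp1, whose mRNA is cut by Ire1 to encode the active factor, had levels of 1.73, 1.65, 0.88 and 0.98 in Npc1-/- replicates and 1.03, 1.24, 1.03 and 1.25 in wild-type replicates. Mutant replicates 1 and 2 were above every wild-type array and replicates 3 and 4 below every one, over 0.86 log2 units (1.81-fold) against 0.22 (1.17-fold) in wild type. The log2 fold change was 0.17 ± 0.21 (SE; limma adjusted p = 0.799; 95% interval -0.30 to 0.64), and the largest fold within the interval was 1.56. The SD was 0.44 in Npc1-/- and 0.13 in wild type, at the 89.6th and the 20.7th percentile of all genes in the same arrays. Its probe lies at chr11:5476970-5477029 (mm7).

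Atf6, the membrane-bound factor released by cleavage in the Golgi, had levels of 0.15, -0.06, 0.19 and -0.06 in Npc1-/- replicates and 0.14, -0.03, 0.37 and 0.26 in wild-type replicates. Mutant replicates 2 and 4 were the low ones and the genotypes overlapped; the log2 fold change was -0.13 ± 0.12 (SE; limma adjusted p = 0.757; 95% interval -0.40 to 0.14). A second Atf6 probe, with mean levels of -2.76 in Npc1-/- and -2.72 in wild type, gave a log2 fold change of -0.04. Ddit3, the factor CHOP that is made late in the response and promotes cell death, had levels of 0.24, 0.44, 0.07 and 0.18 in Npc1-/- replicates and 0.02, -0.05, 0.36 and 0.17 in wild-type replicates. Its genotypes overlapped, and the log2 fold change was 0.11 ± 0.13 (SE; limma adjusted p = 0.79; 95% interval -0.18 to 0.39). The arrays read total transcript, so neither Xbp1 splicing, nor Atf6 cleavage, nor the activity of Perk was measured.

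Dnajb9 is ERdj4, a J-domain partner that directs BiP to its clients, and Herpud1 is a membrane protein of the complex that sends misfolded proteins to the proteasome. Dnajb9 had levels of 1.06, 0.98, 0.90 and 0.82 in Npc1-/- replicates and 0.76, 0.77, 1.37 and 1.08 in wild-type replicates. The wild-type arrays were the wider group here, with an SD of 0.10 in Npc1-/- and 0.29 in wild type, and the log2 fold change was -0.06 ± 0.15 (SE; limma adjusted p = 0.908; 95% interval -0.40 to 0.29). Its other 2 probes gave -0.04 and 0.09. Herpud1 had levels of 2.47, 2.84, 2.28 and 2.19 in Npc1-/- replicates and 2.34, 2.26, 2.81 and 2.36 in wild-type replicates. One array of each genotype, mutant replicate 2 and wild-type replicate 3, was high, and the log2 fold change was 0.0031 ± 0.18 (SE; limma adjusted p = 0.996; 95% interval -0.40 to 0.41).

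Mouse-to-mouse spread differed among the 10 genes. The SD was larger in Npc1-/- than in wild type for 6 of the 10, against 37.8% of all genes (6803); the difference in spread was not tested. Among mutant arrays, replicate 2 was the highest for 5 genes and replicate 1 for 4, and replicate 3 was the lowest for 6 and replicate 4 for 4. Among wild-type arrays, replicate 3 was the highest for 7. The median deviation of the 10 genes from their mean over all arrays was 0.13, 0.30, -0.16 and -0.21 in Npc1-/- replicates 1 to 4 and -0.15, -0.13, 0.15 and 0.03 in wild-type replicates 1 to 4. Mutant arrays 1 and 2 above and 3 and 4 below all wild-type arrays was the pattern of Hspa5, Hsp90b1, Pdia4 and Xbp1, with Calr short of it only in replicate 4, and this grouping was made after the values were seen. Ddit3, Dnajb9 and Herpud1 had the same signs about the mutant mean, with replicates 1 and 2 above it and 3 and 4 below it, but not all of these arrays lay outside the wild-type range. Canx and Atf6 had neither.

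**Figure D4:**
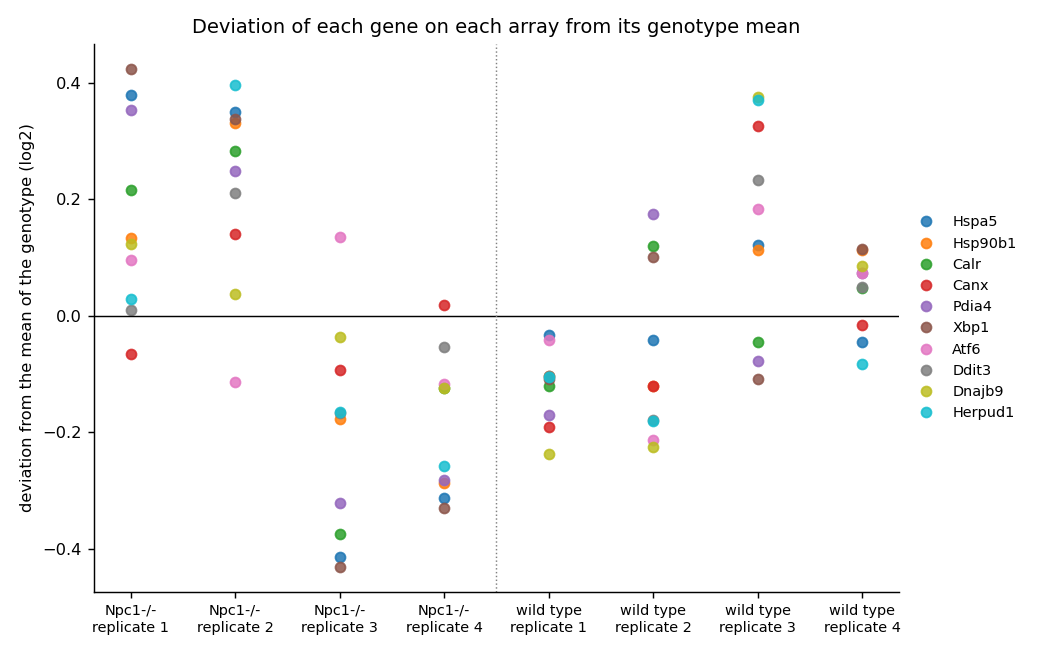
Deviation of each gene from its genotype mean on each array, in log2 units, Npc1-/- arrays left and wild-type arrays right, with 1 colour per gene. The first 2 mutant arrays are above and the last 2 below the mutant mean for 8 of the 10 genes, all but Canx and Atf6.

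The arrays lay on 4 slides, and mutant replicates 1 and 4, with Hspa5 levels of 4.65 and 3.96, were on the same slide and scanned on the same day. Within the 3 slides that held both genotypes (slides 2, 3 and 4), the Hspa5 difference was 0.22, 0.07 and -0.38, the Xbp1 difference 0.62, 0.12 and -0.15, and the median over the 10 genes 0.15, 0.07 and -0.04. Each within-slide value rests on 1 wild-type array. With the slide as a block, the Hspa5 log2 fold change was -0.02 ± 0.22 (SE; limma adjusted p = 0.981) and that of Xbp1 0.18 ± 0.24 (SE; limma adjusted p = 0.819).

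The genes whose deviations from the genotype mean were most like those of Hspa5, by Pearson's r over the 8 arrays and out of 17978 others, were Nrn1 (0.995), Serinc2 (0.994), Slc6a17 (0.991), Hspa1a (0.989) and Slc38a2 (0.984). These are descriptions: all points share the same 8 RNA samples and the array scaling, and the 4 mutant arrays set most of the spread. Nrn1, a neuritin induced by neuronal activity, had levels of 4.01, 3.99, 3.31 and 3.37 in Npc1-/- replicates and 3.50, 3.57, 3.69 and 3.58 in wild-type replicates. Hspa1a, the inducible Hsp70 of the cytosol, had levels of 2.21, 2.19, 0.68 and 0.70 in Npc1-/- replicates and 0.92, 0.94, 1.46 and 1.07 in wild-type replicates, and whether its probe also reads the near-identical Hspa1b was not tested. Its log2 fold change was 0.35 ± 0.39 (SE; limma adjusted p = 0.786). Among the 10 genes, r with Hspa5 was 0.912 for Xbp1, 0.875 for Calr, 0.866 for Pdia4 and 0.862 for Hsp90b1, then 0.725 for Herpud1, 0.643 for Ddit3, 0.430 for Dnajb9, 0.333 for Canx and 0.021 for Atf6.

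The wider pathway was described with 10 lists of genes, which also hold the 10 described genes, so the counts and medians below include them. Together they held 134 genes, of which 132 were tested, and 0 passed in limma, against 0.768% of all genes; 3 had an unadjusted p under 0.05 (Atf3, Cebpb and Slc7a11) where 7.4% of all genes did, and in 1 (Atf3) the genotypes did not overlap, where they did not in 4.91% of all genes. Both counts lie below those shares. Of the 132, 82 had a log2 fold change below 0. The sensors and transducers of the response had 12 tested genes with a median log2 fold change of -0.08, and the largest difference was in Ern1, which encodes Ire1, at 0.29 ± 0.13 (SE; limma adjusted p = 0.702). Ern1 was dim, with mean levels of -3.78 in Npc1-/- and -4.07 in wild type, and above background on 3 wild-type arrays. With normexp and quantile normalization its difference was 0.13. The median was -0.0036 for 16 Hsp70 and Hsp90 class chaperones and cofactors, -0.02 for 10 genes of the calnexin cycle and -0.07 for 14 disulfide isomerases and oxidases. It was -0.07 for 19 genes of endoplasmic reticulum-associated degradation and -0.05 for 10 genes of cell death and Ire1 output. The furthest values are given for these lists, none past the threshold. After Ern1 came Creb3l1, a membrane-bound factor of the Atf6 kind, at -0.19. It was also dim, with mean levels of -4.68 in Npc1-/- and -4.48 in wild type, and above background on 3 wild-type arrays. Among chaperones and cofactors, the J-domain partners Dnajc1 and Dnajc3 were at 0.18 and 0.17 and the oxidoreductase Creld2 at 0.17. In the calnexin cycle, Uggt2 of the glycoprotein folding sensor family was at 0.22, and the glucosidases Mogs and Ganab, which trim the sugars, at -0.14 and -0.13. Among isomerases, the thiol chaperone Erp44 was at -0.18, Pdia5 at 0.17 and the prolyl isomerase Ppib at -0.15. In degradation, the ubiquitin ligase Rnf5 was at -0.20, Selenos at -0.20 and the conjugating enzyme Ube2j1 at -0.14. In the last list, Bloc1s1, whose mRNA Ire1 cuts, was at -0.16, the death effector Bax at -0.13 and the RNA ligase Rtcb, which joins cut Xbp1 mRNA, at -0.10.

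The 16 translocon and signal peptidase genes, which bring new chains into the endoplasmic reticulum, had a median of -0.11, with 13 of 16 below 0 where 53.4% of all genes were. The median was -0.052 without wild-type replicate 3, -0.033 with normexp and quantile normalization and -0.22 with scaling by the array median, which also lowered the median of all genes. Their furthest values were -0.23 for the signal peptidase subunit Spcs1, -0.20 for the channel subunit Sec61g and -0.19 for the translocon-associated Ssr3. The 12 cytosolic heat shock proteins had a median of 0.05, with 0.37 ± 0.26 (SE) for the small heat shock protein Hspb1 and 0.16 for the related Hspb8. The 8 mitochondrial chaperones and proteases had a median of -0.06, with -0.23 for Trap1, -0.22 for Dnaja3 and -0.10 for Clpx. By array, the median deviation of the cytosolic heat shock list from its mean over all arrays was 0.22, 0.16, -0.31 and -0.09 in Npc1-/- replicates 1 to 4, with the same 2 mutant arrays high as for Hspa5, and -0.22, 0.04, 0.15 and -0.08 in wild-type replicates 1 to 4.

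Among 16 targets of Atf4 and CHOP, the median was -0.0016 and the furthest gene was Atf3, a stress-induced transcription factor. Atf3 had levels of -1.76, -1.95, -2.02 and -1.84 in Npc1-/- replicates, against -2.36, -2.62, -2.76 and -3.08 in wild-type replicates. All 4 mutant arrays were above all 4 wild-type arrays, and the log2 fold change was 0.81 ± 0.15 (SE; limma adjusted p = 0.0649), which did not pass. It did pass without wild-type replicate 1, at 0.93 (limma adjusted p = 0.0375), and under 2 other settings given with the dependence on processing. The next 2 were Nupr1 at 0.41 ± 0.22 (SE; limma adjusted p = 0.752) and Cebpb at 0.35 ± 0.14 (SE; limma adjusted p = 0.592), and their genotypes overlapped.

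**Figure D5:**
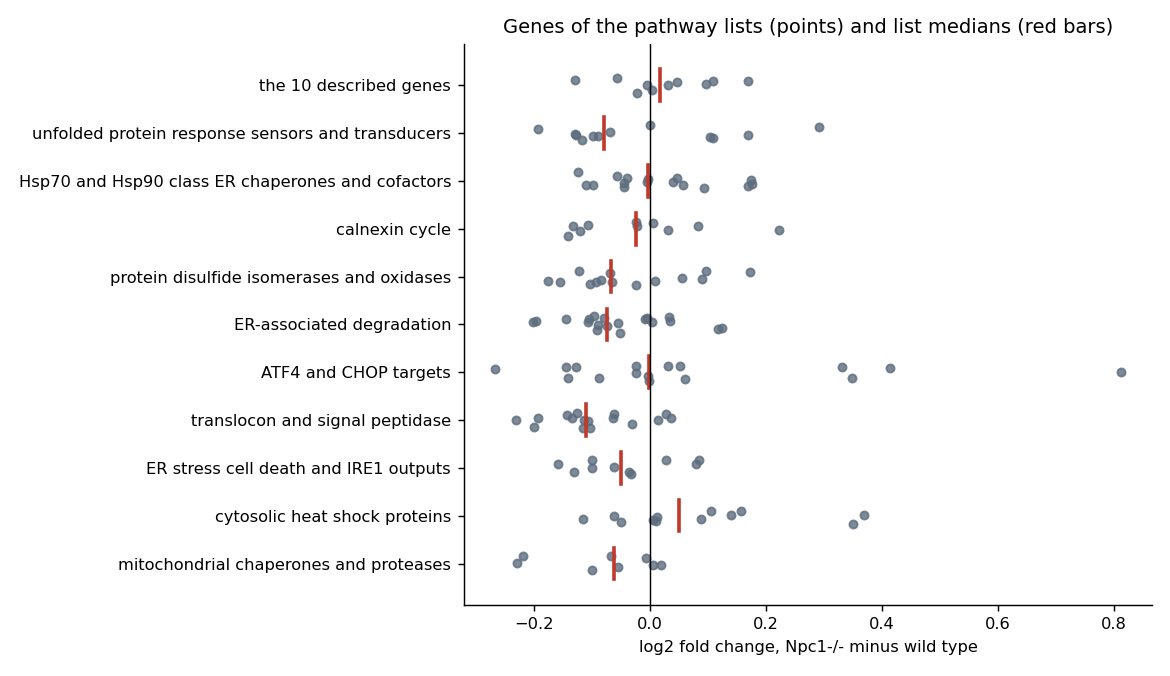
Log2 fold changes (Npc1-/- minus wild type) of the tested genes for the 10 described genes (top row) and each of the 10 pathway lists, 1 point per gene, with a red bar at the median. The described genes appear again in the rows of their lists. Atf3, at 0.81, lies furthest from 0, and no point passed the threshold.

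Markers of other cell types were read on the same arrays, to be set beside the 0.768% of all genes that passed and the 7.4% at an unadjusted p under 0.05. In 4.91% of all genes the genotypes did not overlap. Of 10 markers of microglia and macrophages, 6 rose (Lyz2, Mpeg1, Cd68, Trem2, Tyrobp and Ptprc) with a list median of 1.12, and the list's summed level (log2 of the summed signal) ran from 4.84 to 5.17 in Npc1-/- and from 2.70 to 3.19 in wild-type arrays. The 9 oligodendrocyte markers had a median of -0.57 with 0 passing in limma (7 at an unadjusted p under 0.05), and summed levels of 7.90 to 8.18 in Npc1-/- and 8.29 to 8.68 in wild type. The genotypes did not overlap in 8 of the 10 microglia and macrophage markers and in 6 of the 9 oligodendrocyte markers. The 8 Purkinje cell markers were all below 0, where 53.4% of all genes were. Their median was -0.22, with 0 passing in limma and 0 at an unadjusted p under 0.05. By array, their median deviation was -0.15, -0.19, -0.01 and -0.05 in Npc1-/- replicates 1 to 4. It was 0.14, -0.17, 0.49 and 0.07 in wild-type replicates 1 to 4, so wild-type replicate 3 was the highest and replicate 2 within the mutant range. The 8 granule cell markers were also all below 0, with a median of -0.25, 0 passing and 2 at an unadjusted p under 0.05 (Neurod1 and Gabra6). The 8 astrocyte and Bergmann glia markers had a median of 0.03, and Gfap, at 1.08 ± 0.19 (SE; limma adjusted p = 0.0516), was higher on all 4 mutant arrays than on any wild-type array without passing. The 7 markers of endothelium and pericytes had a median of 0.03, with 0 passing and 0 at an unadjusted p under 0.05. In whole tissue, fewer cells of a type and less RNA per cell cannot be told apart. The choroid plexus markers, of a secretory epithelium beside the cerebellum, had summed levels of 1.19 to 3.52 in Npc1-/- and 2.47 to 3.05 in wild type. Their median deviation was 0.27, 0.90, -1.38 and 0.47 in Npc1-/- replicates 1 to 4. Replicate 3 was the lowest mutant array, as for Hspa5, but replicate 4, low for Hspa5, was above 0 here. Of 6 plasma cell genes, Jchain, Mzb1 and Tnfrsf17 were above background on 0 arrays, Irf4 on 1, Prdm1 on 4 and Sdc1 on 8. Prdm1 was at 0.79 ± 0.19 (SE; limma adjusted p = 0.175), with no overlap between genotypes. It was above background on 3 Npc1-/- arrays and 1 wild-type array, so it met the filter mainly through the group where it was higher. Its levels were low, from -6.28 to -5.38 in wild type. Sdc1 was at -0.49 ± 0.22 (SE; limma adjusted p = 0.675). The part of these cell types in the levels of the 10 genes was not tested.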

How the data were processed

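Total RNA of each cerebellum was labelled with Cy3 (1 colour) and hybridised to Agilent arrays, per the labels' protocols. The deposited intensity values come from the scanner software (Agilent Feature Extraction 9.5, named in the submitters' processing notes). Their processed signals carry a background subtraction within each array, per the file headers, and no scaling from array to array.

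Levels were computed as log2(processed signal), from which the 75th percentile over an array's non-control spots was subtracted. Spots with an outlier flag (74 to 115 per array) were set to missing, and spots of a probe were averaged. A probe was kept where 4 or more of the 8 arrays had it well above background (27160 of 41174), and each gene was represented by its probe of highest mean signal. RefSeq GRCm38.p6 gave current names to 22951 probes through an accession, 6659 through a symbol and 3109 through an older symbol; another 8455 kept the file's name. The genotype difference was fitted with lmFit and eBayes of limma 3.58.1 (R 4.3.3, two-sided), with Benjamini-Hochberg adjustment over all genes or all probes and a threshold of 0.05. The fit was tested on simulated data. There it called 10 of 50 genes with a true log2 fold change of 0.5, 35 of 50 at 1, 34 of 50 at -1 and 45 of 50 at 2, with 4 false calls. Most differences of 0.5 were thus missed. Alternatives covered background correction, scaling, the filter, the probe of a gene, array weights, slide, scan day, the replicate number and each left-out array. Arrays correlated at 0.969 to 0.994.

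The genes and lists were chosen with earlier results of these data known. Named were all 10 genes with every probe, Npc1, the 5 genes most like Hspa5, and from each pathway list the 3 genes of largest difference. Slc7a11 and the marker genes named fall outside this rule and were chosen after their values were seen. The groups hold 4 mice each, which limits precision, and no source says whether equal replicate numbers share a litter or day. The deviations of same-numbered arrays from their genotype means correlated at 0.15, 0.04, -0.45 and 0.20, so the numbers were not taken to pair the mice.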

Additional observations from a re-analysis of the deposited data

Results flagged for a closer look

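Hspa5 on wild-type replicate 3, at 4.40, stood apart from the other 3 wild-type arrays, which lay at 4.23 to 4.24: its gap to the nearest was 0.933 of the wild-type range, above Dixon's 95% critical value for 4 samples. It was 1 of 20 groups examined over the 10 genes, and chance marks about 1 in 20. Wild-type replicate 3 was also the highest wild-type array for 7 of the 10 genes.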

How the results depend on the processing

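The count of the 10 genes called was 0 in all 18 alternatives, and their median log2 fold change ran from -0.09 to 0.13. Scaling by the array median moved the median of all genes to -0.12 and lowered the medians of all 10 pathway lists, that of the translocon list to -0.22 and that of the cytosolic heat shock list to -0.058. The number of genes called, 138, was 87 with quantile normalization, 75 with the array median, 59 without a filter, 88 with detection on all 8 arrays, 38 with the slide as a block, 310 with array weights and 53 to 148 with 1 array left out. The number of probes called, 142, was 92, 89, 62, 83, 36 and 382 in the same order, 94 with scan day as a block and 57 to 148 with 1 array left out. With the replicate block, 27 genes and 26 probes were called. Of the pathway genes, 1 (Atf3) passed with normexp and quantile normalization (0.62, limma adjusted p = 0.0486), 1 with array weights (1.00, limma adjusted p = 0.0147) and 0 to 1 with 1 array left out; its adjusted p was at most 0.251 elsewhere. Signs turned for these log2 fold changes. With normexp, Dnajb9 was 0.045, Canx 0.013, Pdia5 -0.021 and Slc38a2 0.010. With quantile normalization, Hspa5 was 0.065, Canx 0.033 and Slc38a2 0.058. With the array median, Hsp90b1 was -0.061, Herpud1 -0.11, Calr -0.078, Pdia4 -0.011, Nrn1 -0.022 and Slc6a17 -0.036. With the mean of all probes, Slc38a2 was 0.11, and with scan day as a block, Canx 0.0014. With array weights, Hspa5 was 0.17, Canx 0.021, Pdia5 -0.0089, Serinc2 0.072 and Slc38a2 0.064. With 1 array left out, ranges were -0.13 to 0.13 for Hspa5, -0.063 to 0.14 for Hsp90b1, -0.13 to 0.13 for Herpud1, -0.14 to 0.068 for Dnajb9, -0.064 to 0.16 for Calr, -0.021 to 0.20 for Pdia4, -0.086 to 0.086 for Canx, -0.026 to 0.21 for Nrn1, -0.018 to 0.18 for Slc6a17, -0.23 to 0.025 for Serinc2 and -0.10 to 0.045 for Slc38a2. The causes were not tested.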
